A study of Mus musculus with 11 samples.

Results

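The Toll-like receptors are a family of membrane proteins with which macrophages and other cells detect microbial molecules. The 10 genes Tlr1 to Tlr9 and Tlr13 were followed here, out of 18193 genes measured, and they were chosen by name as the listed members of the family. All 10 had a probe set with 1 gene symbol, and each was read from the brightest of its probe sets, judged by the mean over the 11 arrays whatever their group. Levels are deposited log2 values, so that a difference of 1 is a 2-fold difference. Different probe sets bind their targets differently, so levels were compared between groups and not between receptors.

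Macrophages grown from mouse bone marrow were compared in 3 states. M1 cells (3 arrays) received interferon-gamma and, over the last 24 h, lipopolysaccharide (LPS), a component of the outer membrane of Gram-negative bacteria. M2a cells (3 arrays) received the cytokines IL-4 and IL-13, and M0 cells (5 arrays) received no cytokines. All came from C57BL/6 mice aged 7 weeks and of genotype Rag1-/-, which lack mature B and T cells, were kept in culture for 7 days and were sorted for F4/80, a surface protein of mouse macrophages. Total RNA was read on Affymetrix mouse genome arrays. Whether the numbered replicates came from separate mice or cultures is not said in the labels, and the p-values therefore describe a spread between samples that may be only technical.

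Toll-like receptors are sorted by where they work. Tlr1, Tlr2, Tlr4, Tlr5 and Tlr6 act at the cell surface on microbial lipids and proteins, with Tlr2 pairing with Tlr1 or Tlr6, and Tlr4 sensing LPS together with the co-receptor protein Ly96 (MD-2). Tlr3, Tlr7, Tlr8, Tlr9 and Tlr13 act in endosomes on nucleic acids and reach them with the chaperone Unc93b1. Most signal through the adaptor Myd88, and Tlr3 through Ticam1 (TRIF), toward the kappa B and interferon regulatory transcription factors. LPS, a Tlr4 ligand, was thus itself part of the M1 stimulus.

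RefSeq promoters (build GRCm38.p6, from 250 bases before to 50 bases after a start site) were matched for 8 of the 10 genes, with 10 entries in all; Tlr4 and Tlr7 are named only. Motifs known for factors downstream of the stimuli were searched on both strands. The promoters of Tlr2, Tlr3 and Tlr6 are shown, the only ones with matches to kappa B or the interferon-stimulated response element (ISRE). Tlr2 and Tlr3 were higher in M1 cells, but so were Tlr1 and Tlr9, whose entries have no such match. Tlr2 had the widest span between groups. Tlr6 was higher in M2a cells and did not pass in M1 against M0, and its other entry, without an ISRE match, is not printed. Capitals mark kappa B matches in Tlr2 and Tlr3. In Tlr6 they mark ISRE matches, GAAANNGAAA, which lie on the strand opposite to the one printed. All 3 sequences run 5′ to 3′ on the minus strand of chr3:83841559-83841858, chr8:45410331-45410630 and chr5:64959117-64959416.
Tlr2: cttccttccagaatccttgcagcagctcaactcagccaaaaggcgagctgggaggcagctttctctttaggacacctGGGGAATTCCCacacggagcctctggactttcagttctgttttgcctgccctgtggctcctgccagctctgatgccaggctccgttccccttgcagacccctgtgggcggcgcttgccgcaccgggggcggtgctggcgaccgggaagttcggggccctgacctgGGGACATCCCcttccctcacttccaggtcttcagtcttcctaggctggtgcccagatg
Tlr3: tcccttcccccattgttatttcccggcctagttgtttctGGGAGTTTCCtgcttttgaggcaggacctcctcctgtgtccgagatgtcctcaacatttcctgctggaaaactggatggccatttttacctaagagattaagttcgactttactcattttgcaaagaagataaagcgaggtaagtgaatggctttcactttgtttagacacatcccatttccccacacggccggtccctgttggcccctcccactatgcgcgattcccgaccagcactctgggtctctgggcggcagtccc
Tlr6: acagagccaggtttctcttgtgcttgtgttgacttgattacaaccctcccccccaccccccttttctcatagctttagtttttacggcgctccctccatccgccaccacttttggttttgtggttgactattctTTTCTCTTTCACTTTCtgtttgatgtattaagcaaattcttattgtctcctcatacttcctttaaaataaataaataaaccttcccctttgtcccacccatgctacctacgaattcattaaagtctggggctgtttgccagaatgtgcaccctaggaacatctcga

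Kappa B matches, the sites bound by NF-kappa B proteins, began at -173, -172 and -8 from the start site (taken as 0) in Tlr2, the first pair overlapping each other, and at -211 in Tlr3. They were in 2 of the 10 entries, against 8.46% of 32851 promoters of the same length. ISRE matches began at -116 and -110 in Tlr6, overlap each other, and were in 1 entry, against 3.44% of promoters. The interferon-gamma activated (GAS) motif TTCNNNGAA was in 3 entries, one each of Tlr1, Tlr6 and Tlr8, against 8.3% of promoters. Its relative for STAT6, the factor activated by IL-4, is TTCNNNNGAA, and it was in 1 entry, Tlr8, against 6.95%. GAGGAA, the core of the macrophage factor PU.1, was in 4 entries, of Tlr1, Tlr8, Tlr9 and Tlr13, against 28.3%, and its match in Tlr8 overlapped that of STAT6. A match describes letters in this window and does not show binding.

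Before the receptors themselves, some arrays differ in ways that touch the results. On each of the 45101 probe sets M0 arrays 1 to 3 had the same mean as M0 arrays 4 and 5, to within 8.3e-05 on the log2 scale. The sources used here give no reason, and the fit, with 8 residual degrees of freedom, treats these arrays as independent. Per gene, the SD had a median of 0.08 in M1, 0.09 in M2a and 0.24 in M0. Hybridization control probe sets, made from added transcripts, averaged 9.64 to 9.75 on M1 arrays, 9.79 to 9.96 on M2a arrays and 10.6 to 11.7 on M0 arrays. Poly-A controls, added to the RNA before labelling, averaged 5.56 to 5.66 in M1, 6.31 to 6.50 in M2a and 9.19 to 10.3 in M0, and 18S rRNA probe sets 6.15 to 6.30 in M1, 8.51 to 8.64 in M2a and 8.96 to 9.54 in M0. The part of these control differences in the receptor values was not tested. The actin 5′ minus 3′ difference, a sign of RNA or labelling quality, was 0.13 to 0.18 in M1, -0.63 to -0.53 in M2a and -1.27 to 0.05 in M0. The groups thus did not overlap in the hybridization controls, and M1 lay above the others in the actin difference. Fits below that use either measure as a covariate cannot tell it apart from the state in those comparisons.

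The macrophage label was checked against 6 marker genes, all measured. Adgre1, which encodes F4/80, averaged 12.41 in M1, 11.74 in M2a and 11.19 in M0, and the 6 included 3 that were higher and 1 lower in M1 than in M0, and 1 higher and 3 lower in M2a. Fcgr1, an Fc receptor, averaged 6.73 in M2a and 8.82 in M0, and the receptor kinase Mertk 7.26 in M2a and 9.11 in M0. The mean of the 6 markers was 11.38 on every M1 array, 9.58 to 10.01 on M2a arrays and 10.15 to 10.98 on M0 arrays. Markers of other cell types were also present in M0 cells. The mean of 10 neutrophil markers was 7.77 to 7.92 in M1, 5.41 to 5.55 in M2a and 11.6 to 12.8 in M0, with 9 lower in M1 and all 10 lower in M2a than in M0. The mean of 7 eosinophil, basophil and mast cell markers was 3.82 to 3.90 in M1, 4.18 to 4.34 in M2a and 7.20 to 9.26 in M0, and all 7 were lower in both treated groups. Of 4 monocyte markers 2 were measured, with means of 7.69 to 7.88 in M1, 4.90 to 5.18 in M2a and 8.14 to 9.57 in M0. Only 1 of them, Plac8, was lower than in M0 in either treated group. Plac8 averaged 9.51 in M1, 4.34 in M2a and 11.57 in M0, and Ccr2 averaged 6.09, 5.74 and 5.97. The other lists differed less between groups. The mean of 5 plasmacytoid dendritic cell markers was 6.91 to 6.95 in M1, 6.40 to 6.50 in M2a and 6.61 to 6.78 in M0, and 1 of them was higher in M1 than in M0. That of 4 conventional dendritic cell markers was 4.92 to 5.03 in M1, 4.99 to 5.04 in M2a and 4.81 to 5.14 in M0, and that of 4 B cell markers was 4.54 to 4.71 in M1, 4.73 to 4.79 in M2a and 5.49 to 5.69 in M0. Log2 array values have no zero, so no marker can be called absent. In bulk RNA, fewer cells of a type and less RNA per cell cannot be told apart, and the part of these markers in the receptor differences below was not tested.

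M1 cells had more RNA of Tlr1, Tlr2, Tlr3 and Tlr9 than M0 cells and less of Tlr13, with differences in size of 1.48-fold to 3.19-fold. The other 5 receptors did not pass the test. Tlr4, the receptor for the LPS in the M1 stimulus, was 1.07 ± 0.45 higher on the log2 scale (SE, limma adjusted p = 0.082). Of all genes, 39.7% passed in either direction, 22.1% as higher and 17.6% as lower, against 4 receptors higher and 1 lower of 10. Passing with at least a 2-fold difference were 4 receptors, namely Tlr1, Tlr2, Tlr3 and Tlr13, and 12.7% of all genes. The groups' arrays did not overlap for 6 receptors, and for 40.1% of all genes. The median log2 difference was 0.51 over the 10 receptors and 0.06 over all genes. With the hybridization controls as a covariate, 1 receptor was higher and 5 were lower, in a fit that cannot tell these controls apart from the state.

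M2a cells had far less RNA of Tlr2 than M0 cells, 12.4-fold, as well as less of Tlr7 and more of Tlr6 and Tlr9. The other 6 receptors did not pass. Of all genes, 31.9% passed in either direction, 18.6% as higher and 13.3% as lower, against 2 receptors higher and 2 lower. Only Tlr2 and Tlr7, 2 of the 10 receptors, passed with at least a 2-fold difference, against 9.36% of all genes. The groups' arrays did not overlap for 4 receptors, and for 35.1% of all genes. The median log2 difference was 0.06 over the receptors and 0.07 over all genes.

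M1 cells set against M2a cells had more RNA of Tlr1, Tlr2, Tlr3 and Tlr7 and less of Tlr13. The difference of Tlr2 was 32.3-fold and those of the other 3 that were higher lay between 2.16-fold and 3.04-fold. Of all genes, 29.4% passed in either direction, 13.7% as higher and 15.6% as lower, against 4 receptors higher and 1 lower. Tlr1, Tlr2, Tlr3 and Tlr7, 4 of the 10, passed with at least a 2-fold difference, against 11% of all genes. The groups' arrays did not overlap for 8 receptors, and for 64.6% of all genes. All 3 comparisons come from one fit, and those against M0 share the 5 M0 arrays.

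**Figure D1:**
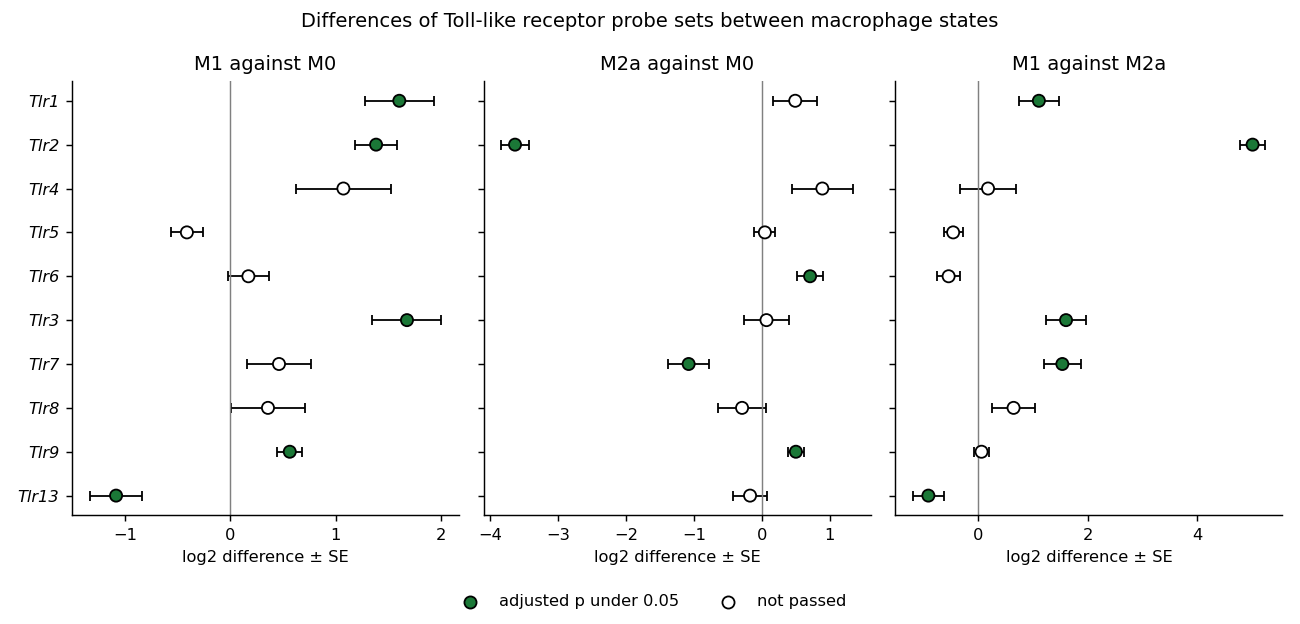
Log2 differences of the 10 receptors (points) with the standard error of the limma fit (bars), for M1 against M0, M2a against M0 and M1 against M2a, each panel on an axis of its own; filled points passed at an adjusted p under 0.05 and open points did not. Tlr2 is filled in all panels, at 1.38, -3.63 and 5.02, while Tlr4 is open in all, with the wide error of 0.45 in M1 against M0.

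Among the surface receptors, Tlr2 senses bacterial lipopeptides and is the shared partner of the Tlr1 and Tlr6 pairs. On its probe set, 1419132_at, the log2 values were 10.63, 10.59 and 10.73 on the M1 arrays, 5.95, 5.17 and 5.79 on the M2a arrays, and 8.82, 9.48, 9.50, 9.04 and 9.50 on the M0 arrays. The 3 groups do not overlap, with M1 highest at 10.65 ± 0.074, M2a lowest at 5.64 ± 0.412 (SD, n = 3 each) and M0 between them at 9.27 ± 0.318 (SD, n = 5). The log2 difference was 1.38 ± 0.20 for M1 against M0 (SE, limma adjusted p = 2.1e-04), -3.63 ± 0.20 for M2a against M0 (limma adjusted p = 1.8e-07) and 5.02 ± 0.22 for M1 against M2a (limma adjusted p = 1.4e-08). Tlr2 moved in opposite directions from M0 in the M1 and M2a groups, and neighbours in the order of levels differed in each case. The neutrophil markers given above were lower than in M0 in both treated groups, and their part in the Tlr2 differences was not tested. With the hybridization controls as a covariate the M1 difference from M0 was 0.62 and no longer passed (limma adjusted p = 0.15), while the M2a difference passed under every one of the 25 alternatives run.

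Tlr1, the partner of Tlr2 for triacylated lipopeptides, read on probe set 1449049_at 8.65, 8.75 and 8.73 in M1 cells, 7.55, 7.56 and 7.69 in M2a cells, and 6.03, 7.63, 7.66, 6.65 and 7.57 in M0 cells. Every M1 array lay above every other array, while M2a and M0 overlapped. It was 1.60 ± 0.33 higher in M1 than in M0 on the log2 scale (SE, limma adjusted p = 0.0024) and 1.11 ± 0.37 higher in M1 than in M2a (limma adjusted p = 0.040). M2a and M0, the lower neighbours, differed by 0.49 with a 95% interval from -0.22 to 1.21. With the actin 5′ minus 3′ difference as a covariate the M1 difference from M0 was 1.05 and did not pass (limma adjusted p = 0.085), and a hybridization control covariate gave -0.23. The call against M2a was lost when any one of the 6 M1 and M2a arrays was left out (limma adjusted p = 0.084 to 0.10).

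Tlr6, the partner of Tlr2 for diacylated lipopeptides, read on probe set 1421352_at 6.42, 6.44 and 6.50 in M1 cells, 7.03, 6.93 and 7.04 in M2a cells, and 5.75, 6.55, 6.55, 5.94 and 6.63 in M0 cells. All M2a arrays lay above all others, and M1 lay inside the M0 range. Tlr6 was 0.71 ± 0.19 higher in M2a than in M0 on the log2 scale (SE, limma adjusted p = 0.015), and M1 differed from M0 by 0.17 with a 95% interval from -0.25 to 0.59. M1 differed from M2a by -0.54 with no overlap, which did not pass (limma adjusted p = 0.082), although it did without M0 replicate 1 (limma adjusted p = 0.028). Leaving out M2a replicate 1 or M2a replicate 3 ended the call against M0 (limma adjusted p = 0.056 in each case), and without M0 arrays 1 and 4 the difference was 0.42 and passed. By group mean, Tlr1 was thus highest in M1 cells and Tlr6 in M2a cells.

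Tlr4, which detects LPS, read on probe set 1418162_at 8.49, 8.73 and 8.78 in M1 cells, 8.41, 8.43 and 8.63 in M2a cells, and 6.58, 8.23, 7.97, 6.45 and 8.74 in M0 cells. The M0 arrays spanned more than 2 log2 units and overlapped both treated groups. The difference from M0 was 1.07 in M1, with a 95% interval from 0.08 to 2.07, and 0.89 in M2a, with a 95% interval from -0.10 to 1.89, and neither passed (limma adjusted p = 0.082 and 0.16). M1 and M2a differed by 0.18, with a 95% interval from -0.93 to 1.29. Without M0 replicate 5 both differences passed, at 1.36 for M1 (limma adjusted p = 0.012) and 1.18 for M2a (limma adjusted p = 0.030), while without M0 arrays 1 and 4 the M1 difference was 0.35 and did not (limma adjusted p = 0.105).

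Tlr5, the receptor for bacterial flagellin, read on probe set 1450242_at 5.00, 4.99 and 4.88 in M1 cells, 5.38, 5.56 and 5.29 in M2a cells, and 5.38, 5.12, 5.60, 5.72 and 5.02 in M0 cells. The M1 arrays lay below all the others. The log2 difference was -0.41 for M1 against M0 (limma adjusted p = 0.053) and -0.46 for M1 against M2a (limma adjusted p = 0.068), both short of the threshold. Against M0 it passed without M0 replicate 2 (limma adjusted p = 0.036) or 5 (limma adjusted p = 0.012), and against M2a without M0 replicate 4 or 5 (limma adjusted p = 0.033 in each case). M2a and M0 overlapped, with a 95% interval of the difference from -0.29 to 0.38.

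**Figure D2:**
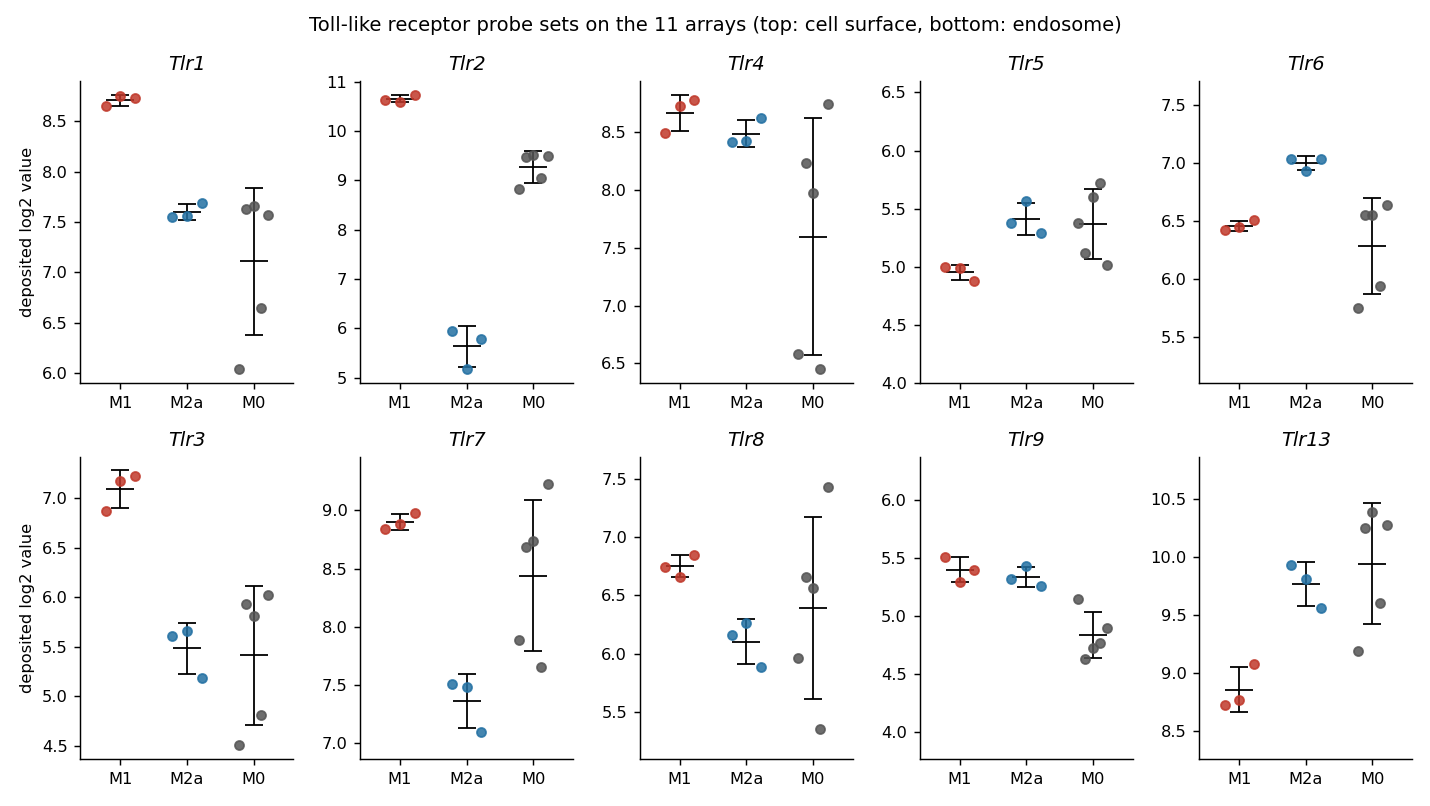
Deposited log2 values of the 10 receptors on every M1, M2a and M0 array, one panel per gene, with the mean and SD of each group. The 3 groups separate fully for Tlr2, at 10.65, 5.64 and 9.27, and the M0 arrays of Tlr4 spread from 6.45 to 8.74.

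Among the endosomal receptors, Tlr3 binds double-stranded RNA. On probe set 1422782_s_at it read 6.87, 7.17 and 7.22 in M1 cells, 5.60, 5.65 and 5.19 in M2a cells, and 4.51, 5.93, 5.81, 4.81 and 6.02 in M0 cells. The M1 arrays lay above all the others, and M2a lay within the M0 range. Tlr3 was 1.67 ± 0.33 higher in M1 than in M0 on the log2 scale (SE, limma adjusted p = 0.0018) and 1.61 ± 0.37 higher in M1 than in M2a (limma adjusted p = 0.0061). M2a and M0 differed by 0.07, with a 95% interval from -0.65 to 0.79, but by -0.43 without M0 arrays 1 and 4 (limma adjusted p = 0.024). With the actin difference as a covariate the M1 difference from M0 was 0.99 and did not pass (limma adjusted p = 0.081), and with the hybridization controls it was -0.14. The M1 call against M2a was lost with that actin covariate, at 0.96 (limma adjusted p = 0.0996), and on the other probe set, at 0.62 (limma adjusted p = 0.051).

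Tlr7, a receptor for single-stranded RNA, read on probe set 1422010_at 8.84, 8.89 and 8.98 in M1 cells, 7.51, 7.48 and 7.10 in M2a cells, and 7.89, 8.69, 8.74, 7.65 and 9.23 in M0 cells. M2a lay below every other array, and M1 lay inside the M0 range. Tlr7 was lower in M2a than in M0, by -1.08 ± 0.30 on the log2 scale (SE, limma adjusted p = 0.017), and 1.54 ± 0.34 higher in M1 than in M2a (limma adjusted p = 0.0047). M1 differed from M0 by 0.46, with a 95% interval from -0.20 to 1.12, and by 0.66 without M0 replicate 5 (limma adjusted p = 0.046). The M1 call against M2a was lost with the actin difference as a covariate, at 0.69 (limma adjusted p = 0.075), and with the mean of the probe sets the difference was 0.80. The M2a call against M0 was lost without M2a replicate 3, at -0.94 (limma adjusted p = 0.081), and with M0 arrays 4 and 5 as the only M0 arrays (limma adjusted p = 0.093).

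Tlr8 is closely related to Tlr7. On probe set 1450267_at it read 6.75, 6.66 and 6.85 in M1 cells, 6.16, 6.26 and 5.88 in M2a cells, and 5.96, 6.66, 6.56, 5.35 and 7.43 in M0 cells. The M0 range covered both treated groups, while M1 lay wholly above M2a. No comparison passed, with log2 differences of 0.36 for M1 against M0, -0.29 for M2a against M0 and 0.65 for M1 against M2a (limma adjusted p = 0.450, 0.570 and 0.253). Without M0 arrays 1 and 4 the M2a difference from M0 was -0.78 and passed (limma adjusted p = 0.0078), and M1 against M2a passed in a fit of those groups alone (limma adjusted p = 0.00094). By group mean the order was the same as for Tlr7, with M1 highest and M2a lowest.

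Tlr9, which detects unmethylated CpG DNA, read on probe set 1422083_at 5.51, 5.29 and 5.39 in M1 cells, 5.32, 5.43 and 5.26 in M2a cells, and 5.14, 4.63, 4.73, 4.77 and 4.90 in M0 cells. Both treated groups lay above every M0 array and overlapped each other. The difference from M0 was 0.56 ± 0.12 in M1 (SE, limma adjusted p = 0.0028) and 0.50 ± 0.12 in M2a (limma adjusted p = 0.0070), or 1.48-fold and 1.42-fold. M1 and M2a differed by 0.06, with a 95% interval from -0.23 to 0.35. Tlr9 was the only receptor that passed as higher in both comparisons against M0, which share their M0 arrays. Its values are low, below the median gene mean of 5.94 in M1, 5.96 in M2a and 5.96 in M0. So were the means of Tlr5 in all groups, Tlr3 in M2a and M0, and Tlr2 in M2a. Whether such values stand above background was not tested.

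Tlr13, which in mice recognizes bacterial ribosomal RNA, read on probe set 1457753_at 8.72, 8.77 and 9.08 in M1 cells, 9.93, 9.81 and 9.56 in M2a cells, and 9.19, 10.24, 10.39, 9.61 and 10.28 in M0 cells. The M1 arrays lay below all the others, and M2a lay inside the M0 range. Tlr13 was lower in M1, by -1.08 ± 0.25 against M0 (SE, limma adjusted p = 0.0050) and by -0.91 ± 0.28 against M2a (limma adjusted p = 0.029), both on the log2 scale. M2a and M0 differed by -0.17, with a 95% interval from -0.72 to 0.38. Without M0 arrays 1 and 4 that difference was -0.53 and passed (limma adjusted p = 0.0042). The M1 call against M2a was lost without M1 replicate 1 or 2 or M2a replicate 1 or 2 (limma adjusted p = 0.082 to 0.10). Tlr13 was the only receptor that passed as lower in M1 cells.

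By location, 2 of the 5 surface receptors were higher in M1 than in M0 and none lower, and 2 of the 5 endosomal receptors were higher and 1 lower. In M2a against M0, 1 surface receptor was higher and 1 lower, and the endosomal receptors gave the same counts. The median log2 difference was 1.07 for surface and 0.46 for endosomal receptors in M1 against M0, and 0.49 and -0.17 in M2a against M0. Of all genes, 22.1% were higher and 17.6% lower in M1 against M0, and 18.6% and 13.3% in M2a against M0, so that 1 of 5 lies near these shares. With 5 genes on each side the counts and medians are a description.

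The spread of the receptors in M0 cells followed a pair of arrays. M0 arrays 1 and 4 were both lower than arrays 2, 3 and 5 for 8 of the 10 receptors, all but Tlr5 and Tlr9, and for 31.5% of all genes. Because arrays 1 to 3 and arrays 4 and 5 have the same mean, arrays 4 and 5 mirror each other around the M0 mean. Array 5 is therefore above that mean wherever array 4 is below it, and the 2 are not separate observations of the pattern. Relative to the M0 mean, Tlr4 stood at -1.01 and -1.15 on these arrays, and Tlr1 at -1.07 and -0.46. Tlr9 differed, with array 1 the highest of its M0 values.

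Some other measures moved with the same arrays, and others did not. On M0 arrays 1 and 4 the hybridization controls averaged 11.7 and 11.69, against 10.77, 10.98 and 10.61 on arrays 2, 3 and 5. The neutrophil markers averaged 12.83 and 12.18, against 11.64, 11.56 and 11.84, and the macrophage markers 10.21 and 10.15, against 10.72, 10.76 and 10.98. In these averages, too, arrays 4 and 5 mirror each other around the M0 mean. The actin difference did not set arrays 1 and 4 apart, at -0.63 and -1.27 against -0.58, -0.63 and 0.05. Nor did the eosinophil, basophil and mast cell markers, at 9.26 and 7.78 against 7.69, 7.20 and 8.33. For 18S rRNA it was 9.16 and 8.96 against 9.05, 9.54 and 9.53. The part of these measures in the receptor values was not tested. Without arrays 1 and 4, 5 receptors passed in M1 against M0, 4 higher and 1 lower, and 7 passed in M2a against M0, 2 higher and 5 lower. More of all 18193 genes passed as well, 9218 in M1 against M0 and 8233 in M2a against M0. With all arrays it was 7217 and 5804.

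**Figure D3:**
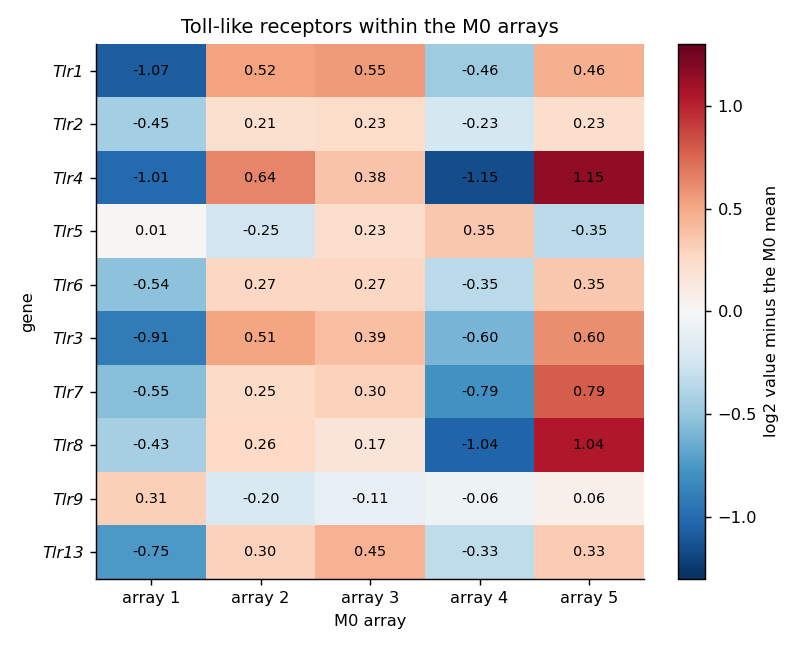
Log2 value of each receptor on each of the 5 M0 arrays minus its M0 mean, with blue below and red above that mean. Arrays 1 and 4 are below the mean for 8 receptors, down to -1.15 for Tlr4, and Tlr5 and Tlr9 do not share the pattern.

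Tlr3, Tlr4 and Tlr7 have further probe sets, which were tested in a fit over 34945 probe sets. The other Tlr3 probe set, 1422781_at, was likewise higher in M1 than in M0, by 1.06 (limma adjusted p = 0.0012), and its M1 minus M2a difference of 0.62 did not pass (limma adjusted p = 0.0502). For Tlr4, 1418163_at differed from M0 by 0.26 in M1 and 0.15 in M2a, 1430695_at by 0.06 and 0.22, and 1442827_at by -0.71 and -0.35, and none of these passed. The Tlr4 probe sets thus disagree in sign, but the negative one is of low signal. It averaged 4.99 in M1, 5.35 in M2a and 5.70 in M0, and 1430695_at averaged 2.97, 3.13 and 2.91. The brighter 1418163_at averaged 8.15, 8.03 and 7.88, and it had the sign of the probe set used above.

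The 2 other Tlr7 probe sets, 1419848_x_at and 1449640_at, were lower in M2a than in M0, by -0.73 (limma adjusted p = 0.0079) and -0.66 (limma adjusted p = 0.0095). This is the direction of the probe set used above. In M1 against M0 they stood at -0.33 and -0.22, opposite in sign to the 0.46 of the probe set used, and none of the 3 passed there. In M1 against M2a they stood at 0.40 (limma adjusted p = 0.149) and 0.44 (limma adjusted p = 0.090) and did not pass, against 1.54 for the probe set used.

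**Figure D4:**
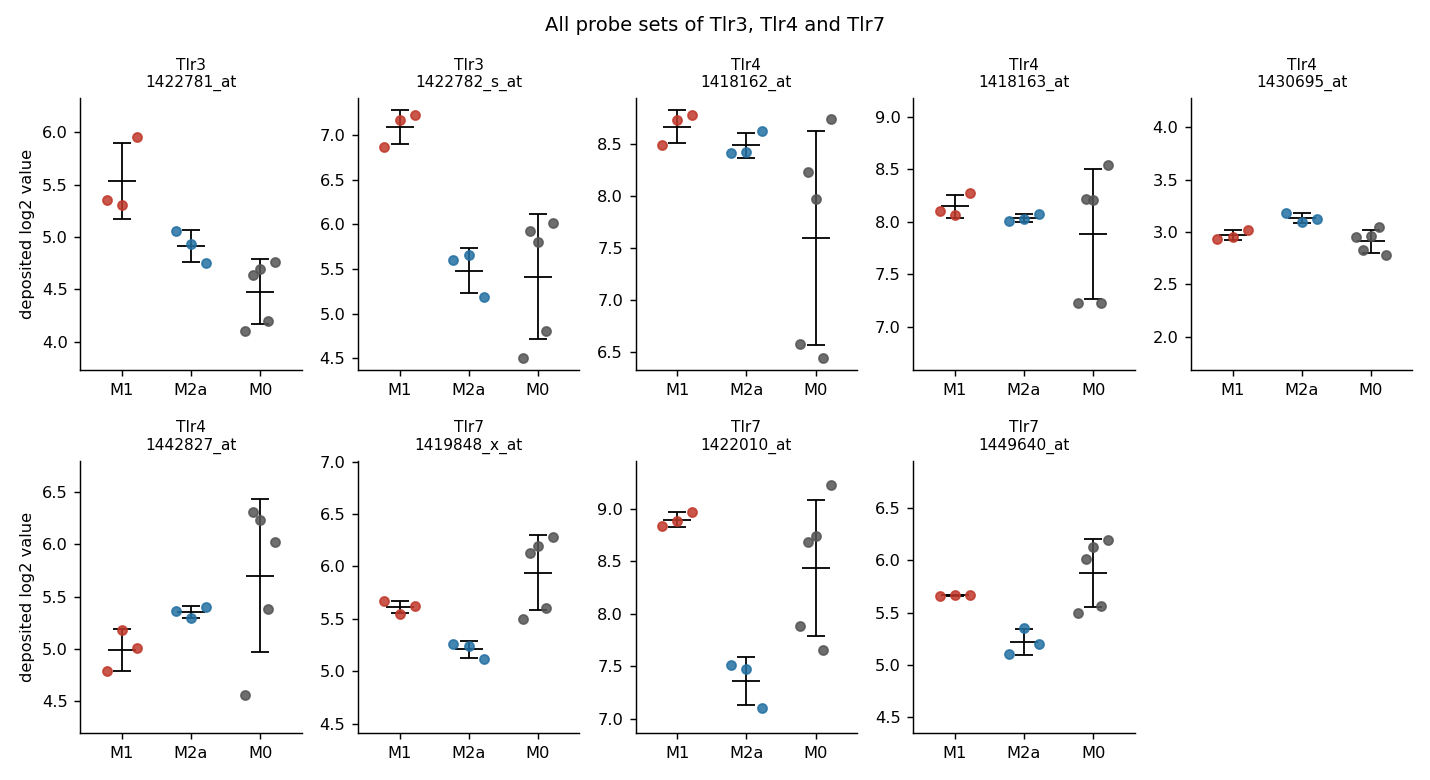
Deposited log2 values of all probe sets of Tlr3, Tlr4 and Tlr7 on the M1, M2a and M0 arrays, with the mean and SD of each group, each panel on an axis of its own. Both Tlr3 probe sets are highest in M1, with M1 minus M0 differences of 1.67 and 1.06, while the Tlr4 probe sets run from 1.07 to -0.71.

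The genes whose patterns came closest to each receptor were found among 3372 genes with a range of group means of at least 1 log2 unit, by the root mean square log2 difference over the 11 arrays after centring each gene on its own mean. Tlr1 was closest to Rasgef1b (0.084) and Slc30a1 (0.110), and Tlr13 to Atp2b1 (0.137) and Fabp4 (0.175). Tlr3 was closest to Fam3c (0.158) and Cyp4v3 (0.186), Tlr7 to Fbxl4 (0.189) and Enc1 (0.207), and Tlr4 to Clock (0.157) and Nol11 (0.161). For Tlr2, whose group means spanned 5.02, Treml4 stood at 0.308 and Wfdc17 at 0.373. The distance is not scaled to that span, so it does not rank the receptors by closeness of match. The remaining nearest genes were Snhg12 (0.153) and Mff (0.154) for Tlr6, and Commd8 (0.218) and Rbm48 (0.236) for Tlr8. For Tlr5 they were Bhmt (0.253) and Lasp1 (0.270), and for Tlr9 Epn2 (0.262) and Praf2 (0.267). The group means of Tlr6, Tlr8, Tlr5 and Tlr9 spanned 0.71, 0.65, 0.46 and 0.56. That is under the limit set for the genes searched, so no gene of like span was eligible for them. The points share the same 11 arrays and their scaling, so the likeness is a description.

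The partners and signalling proteins of the receptors were followed in a list of 53 other genes, of which 45 were measured; the rest, among them Tlr11 and Ticam2, were not analysed here. In M1 against M0, 22 of the 45 (48.9%) were higher and 8 (17.8%) lower, against 22.1% and 17.6% of all genes, with a median log2 difference of 0.36. With the hybridization controls as a covariate, 13 were higher and 9 lower. In M2a against M0, 6 (13.3%) were higher and 16 (35.6%) lower, against 18.6% and 13.3% of all genes, with a median of -0.09. With that covariate 3 were higher and 25 lower, and without M2a replicate 2 or 3 it was likewise 3 that were higher. M1 against M2a gave 22 higher and 3 lower, against 13.7% and 15.6% of all genes, with a median of 0.48. Tlr12, a receptor outside the 10, differed from M0 by 0.25 in M1 and 0.06 in M2a and did not pass in either.

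Co-receptors and ligand carriers act before the receptors, and of 7 measured, 3 were higher and 2 lower in M1 than in M0. Of all genes, 22.1% were higher and 17.6% lower in M1, and 18.6% and 13.3% in M2a. With 3 to 10 genes in this and each following list, the counts are a description. Ly96, the LPS-binding partner of Tlr4, was 2.06 ± 0.46 higher on the log2 scale in M1 (SE, limma adjusted p = 0.0040). Its SD over the M0 arrays was wide, at 1.04. Lbp, which carries LPS, stood at -1.48 in M1. In M2a against M0, 2 were higher and 3 lower. Cd36, a scavenger receptor that works with Tlr2 and Tlr6, was 1.05 ± 0.35 higher there (SE, limma adjusted p = 0.041) and also 1.32 higher in M1. Its SD over the M0 arrays was 0.80. Lbp stood at -2.35 in M2a. Cd14, the co-receptor that hands LPS to Ly96 and Tlr4, was 2.05 higher in M1 and stood at -1.32 in M2a; it was named after its values were seen.

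Of 10 genes of receptor trafficking and cleavage, 4 were higher and 1 lower in M1 than in M0. Unc93b1, the chaperone of the endosomal receptors, was 1.60 higher in M1 on the log2 scale, with a limma adjusted p of 1.0e-05. Ctsl, a cathepsin that cleaves endosomal receptors, stood at -0.76 in M1 and at 1.16 in M2a. The M2a counts were 1 higher and 2 lower of 10, near the 18.6% and 13.3% of all genes. In M1 the shares of all genes were 22.1% and 17.6%. Hsp90b1, a chaperone that Toll-like receptors need for folding, stood at -0.45 in M2a and at 0.36 in M1. Of 3 genes that process nucleic acid ligands, Pld4, a nuclease that degrades single-stranded nucleic acids, was 1.29 higher in M1, and the deoxyribonuclease Dnase2a stood at -1.33 in M1 and -0.95 in M2a. In M2a 2 of these 3 were lower, Dnase2a and, at -0.78, Pld4.

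Downstream of the receptors, 2 of 5 adaptors and scaffolds were higher in M1 than in M0, led by Pik3ap1 at 1.54. In M2a 1 was lower, the adaptor Myd88 at -0.33, which stood at 0.67 in M1. Of 9 kinases and ubiquitin ligases, 5 were higher and 1 lower in M1, with the ubiquitin ligase Peli1 at 1.62 and the kinase Irak1 at -0.50. None was higher and 4 were lower in M2a, with the kinase Ikbke at -1.23, Peli1 at -0.68 and Irak1 at -0.49. Ikbke stood at 1.15 in M1. These are log2 differences from M0. Of all genes, 22.1% were higher and 17.6% lower in M1, and 18.6% and 13.3% in M2a. The 1 of 5 adaptors and scaffolds lower in M2a lies near that share.

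Among 6 negative regulators, 4 were higher and 2 lower in M1 than in M0. Tnfaip3 (A20), which edits ubiquitin to restrain NF-kappa B signalling, was 2.76 higher in M1 and 1.42 higher in M2a on the log2 scale. Sigirr, an inhibitory receptor, stood at -0.52 in M1 and at -0.70 in M2a. The M2a counts were 3 higher and 2 lower, with Irak3, an inhibitory member of the Irak family, at -1.36. Irak3 was 2.27 higher in M1. The shares of all genes were 22.1% higher and 17.6% lower in M1, and 18.6% and 13.3% in M2a.

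Of 4 transcription factors below the receptors, 3 were higher and 1 lower in M1 than in M0, and 2 were lower in M2a. Among all genes 22.1% were higher and 17.6% lower in M1, and 13.3% were lower in M2a. Irf7, which drives type I interferon genes after Tlr7 and Tlr9 engagement, was 4.03 higher in M1 and stood at -0.71 in M2a. Irf3, which acts below Tlr3 and Tlr4, stood at -0.48 in M1 and at -0.56 in M2a. All pathway genes named with a value as higher, lower or at a signed difference from M0 passed the limma test over all genes, except Tlr12.

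**Figure D5:**
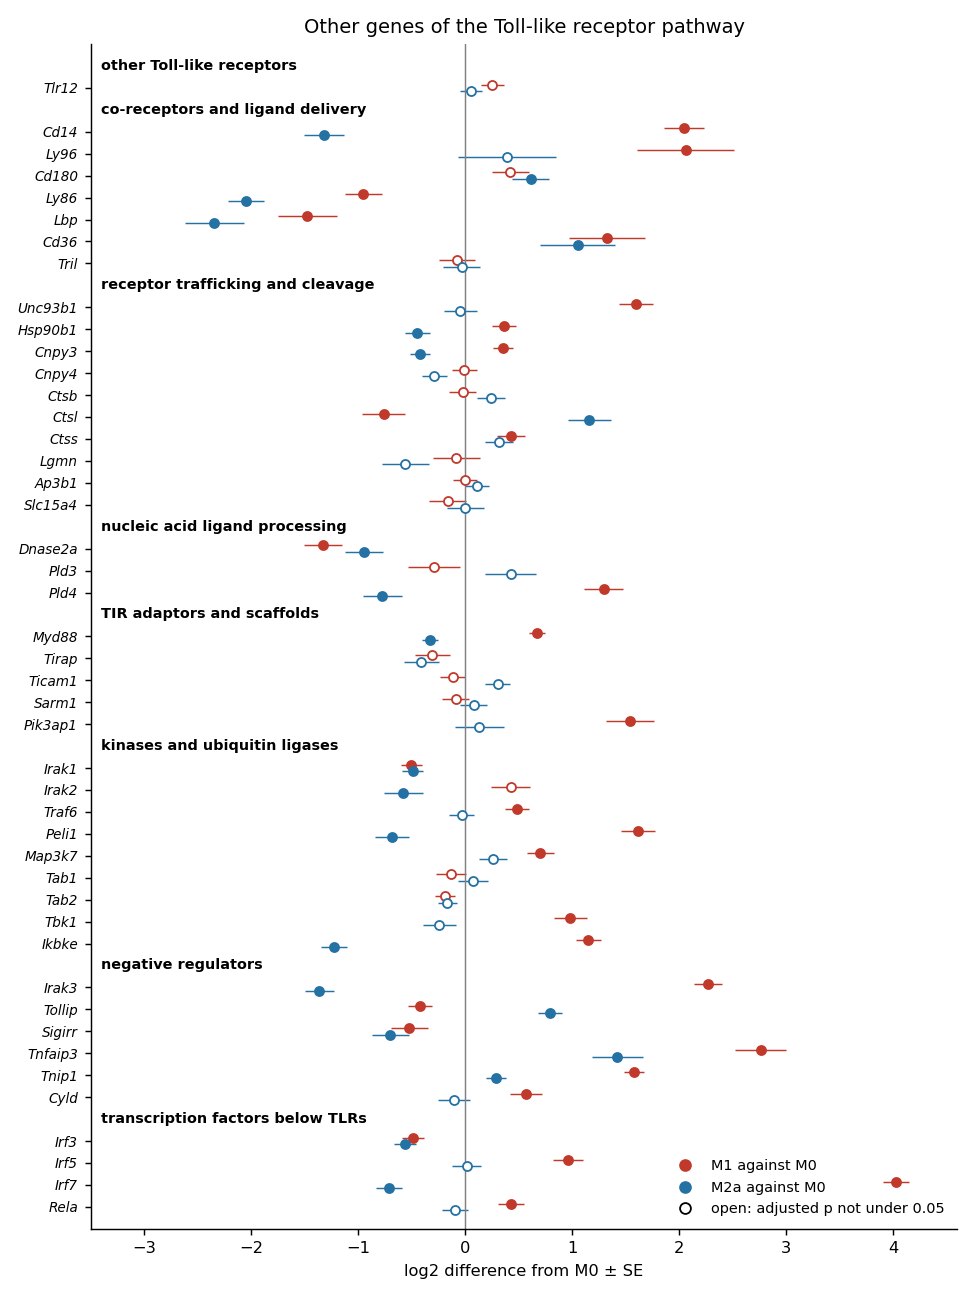
Log2 differences from M0 with the standard error (bars) of the 45 measured pathway genes, grouped by role, for M1 (red) and M2a (blue); open points did not pass at an adjusted p under 0.05. Irf7 stands at 4.03 in M1 and -0.71 in M2a, and the filled points above 0 number 22 for M1 and 6 for M2a.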

How the data were processed

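Total RNA of sorted macrophages was measured on 11 Affymetrix mouse genome arrays, 3 of M1, 3 of M2a and 5 of M0, grouped by their labels. The values of 45101 probe sets are on a log2 scale as the authors deposited them. Partek is named without a version per the submitters' processing notes; for background correction, probe summary and normalization the method is not given in the sources used here. No filter on low values was applied. Of 35890 probe sets in a gene table, 34945 had 1 symbol. For 34741 the Entrez identifier was found in RefSeq and the symbol was taken from there, whether or not it changed. In all 18193 genes remained, each by its probe set of highest mean, and 64 control probe sets were left out. limma 3.58.1 in R 4.3.3 (lmFit, eBayes, a mean per group) was run on all 11 arrays, with Benjamini-Hochberg adjustment over all genes and a threshold of 0.05, after testing on simulated data. Figures were drawn with matplotlib 3.10.9. Fold values are 2 raised to the log2 difference. The number of arrays limits the precision.

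The receptors, gene lists and tests were chosen with earlier results of these data known. All 10 receptors are named; of each pathway list, the called gene with the largest rise and the one with the largest fall against M0; and for each receptor the 2 genes of most similar pattern. Alternatives covered normalization, probe set choice, filters, arrays, weights and covariates.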

Additional observations from a re-analysis of the deposited data

How the results depend on the processing

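With 25 alternatives per comparison, the number of receptors that passed was compared with 5 in M1 against M0, 4 in M2a against M0 and 5 in M1 against M2a. In M1 against M0 it was 3 among genes above the median gene, where 7 receptors remained, and 5 to 8 with an array left out, 8 of them without M0 replicate 5; with the hybridization covariate 6 passed, 1 higher and 5 lower. In M2a against M0 it was 7 without M0 arrays 1 and 4, 8 with the hybridization covariate (1 higher, 7 lower) and 2 to 5 with an array left out, 2 of them without M2a replicate 3. In M1 against M2a it was 8 with only these groups, with M0 arrays 1 to 3 alone, without M0 arrays 1 and 4 and with array weights, 3 with median centring and with the actin covariate (1 higher, 2 lower), and 3 to 6 with an array left out (3 without M1 replicate 1 or 2 or M2a replicate 1 or 2). Of all 18193 genes, 10357, 7138, 8653 and 11342 passed in the fits with 8 receptors, in that order, against 5341 in the main fit. In M2a against M0 it was 8233 genes without M0 arrays 1 and 4, against 5804. Among genes above the median gene, 4625 of 9096 passed in M1 against M0. The receptor counts therefore shift together with the number of all genes that pass, and are no result about the receptors alone. The total of pathway genes that passed stayed within 1.5 times, but not its parts: in M1 against M0, 24 higher and 13 lower without M0 arrays 1 and 4, 25 and 14 with array weights, and 13 and 9 with the hybridization covariate; in M2a against M0, 3 higher and 25 lower with that covariate; in M1 against M2a, 5 to 9 lower in 6 alternatives, the most with array weights.

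Of 741 values for single receptors, 34 changed sign and 639 kept direction and call, including values that passed in neither fit. Some alternatives could change only the call. Using only M0 arrays 4 and 5, or only the other M0 arrays, keeps the M0 mean, because these means are equal. Another eBayes setting and fits of only the groups compared also keep the difference, as does averaging for receptors without further probe sets. The 639 are therefore not a measure of robustness. The hybridization covariate gave M1 against M0 log2 differences of -0.23 for Tlr1, -0.14 for Tlr3, -1.72 for Tlr4, 0.17 for Tlr5, -0.91 for Tlr6, -1.22 for Tlr7 and -1.60 for Tlr8, M2a against M0 differences of -1.15 for Tlr1, -1.56 for Tlr3, -1.61 for Tlr4 and -0.26 for Tlr6, and -0.11 for Tlr4 in M1 against M2a. The actin covariate gave M1 against M0 differences of -0.27 for Tlr4, 0.0098 for Tlr5, -0.24 for Tlr6, -0.43 for Tlr7 and -0.83 for Tlr8, and M1 against M2a differences of -1.09 for Tlr4 and -0.47 for Tlr8. Leaving out M0 arrays 1 and 4 gave -0.12 for Tlr6 and -0.13 for Tlr8 in M1 against M0, and -0.019 for Tlr1 and -0.43 for Tlr3 in M2a against M0. Array weights gave -0.04 for Tlr6 in M1 against M0, -0.21 for Tlr3 in M2a against M0 and -0.0065 for Tlr9 in M1 against M2a. Averaging all probe sets per gene gave -0.028 for Tlr7 in M1 against M0 and -0.059 for Tlr4 in M1 against M2a. With an array left out in M2a against M0, Tlr3 ranged from -0.16 to 0.22, below 0 without M0 replicate 1 or 4 or M2a replicate 2, and Tlr5 from -0.042 to 0.13, below 0 without M0 replicate 2 or 5 or M2a replicate 2. Where the groups do not overlap in a covariate, its fit cannot tell it apart from the state. The cause was not tested.

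Whether equal replicate numbers mark a pairing is not said in the labels. Same-numbered deviations correlated at 0.248, 0.040 and 0.168 for M1 and M0. They correlated at 0.038, 0.009 and 0.016 for M1 and M2a, and at -0.039 to 0.008 for M2a and M0. Of 18 comparisons of an array with another group, 9 matched its own number best, and 0 of those were between M2a and M0. These values do not settle whether a pairing exists. With the replicate block, 7, 5 and 8 receptors passed in M1 against M0, M2a against M0 and M1 against M2a. The number of all genes that passed in that fit is not given here, so these counts are a description.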

Other observations

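Tlr12, outside the 10 receptors, has a second probe set, 1438329_at, which was higher than in M0 by 0.65 in M1 (limma adjusted p = 3.9e-04) and by 0.37 in M2a (limma adjusted p = 0.016) on the log2 scale. The probe set used for the gene, 1437931_at, averaged 5.48 in M1, 5.28 in M2a and 5.22 in M0 and did not pass in either comparison.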
